A study of Mus musculus with 24 samples.

Results

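RNA levels of 10 genes of the prostaglandin and leukotriene pathway were described in mouse bone marrow-derived macrophages (BMDMs, macrophages grown in culture from bone marrow with the growth factor M-CSF). The genes were Pla2g4a, Ptgs1, Ptgs2, Ptges, Tbxas1, Ptger2, Ptger4, Alox5, Alox5ap and Ltc4s. They were the rows of the deposited count files whose Ensembl identifier carries 1 of these symbols, 10 of 52636 genes in each file. All 10 passed the filter on low counts, as did 14681 genes in all.

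Cytosolic phospholipase A2, encoded by Pla2g4a, releases arachidonic acid from membranes. Cyclooxygenases turn it into prostaglandin H2, from which terminal synthases make prostaglandin E2, thromboxane A2 and other prostanoids that act on G protein-coupled receptors. Lipoxygenase instead turns arachidonic acid into leukotrienes, with the help of a membrane protein that presents the substrate. Macrophages are known for both branches, and prostaglandin E2 is known to dampen some of their inflammatory responses and to act in fever and pain.

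The 24 libraries fell into 8 groups of 3, from 4 genotypes that were each untreated or treated for 8 h with R837, a drug also called imiquimod that acts through Toll-like receptor 7. TBK1-WT ∆control is described in the series record as TBK1 wildtype, TBK1-WT ∆IKKe as TBK1 wildtype with a knockout of IKKe, TBK1-cKD ∆control as a conditional knockout of TBK1, and TBK1-cKD ∆IKKe as both together. TBK1 and IKKe are protein kinases related to the IkB kinases and are encoded by Tbk1 and Ikbke. No source used here gives the allele, the Cre driver or the age of the mice, and the protocol text on every record names wild-type C57BL/6N mice. The same text counts 3 mice as the biological replicates, and whether a mouse gave libraries to more than 1 group is not stated. All cells were cultured in M-CSF.

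Untreated Ikbke RNA stood at 5.90 (log2 CPM) for TBK1-WT ∆control, 5.13 for TBK1-WT ∆IKKe, 6.21 for TBK1-cKD ∆control and 6.31 in libraries with the TBK1-cKD ∆IKKe label (CPM is a gene's counts divided by the TMM-scaled library total and given per 1e6 counts). Untreated, the last group thus had no lower Ikbke RNA than TBK1-cKD ∆control. After R837, Ikbke was at 7.78 to 8.66, 6.14 to 6.31 and 7.90 to 7.95 log2 CPM in the first 3 genotypes. The last group was at 6.28, 6.37 and 8.02 then, so that 2 of its libraries lay near TBK1-WT ∆IKKe and replicate 3 above TBK1-cKD ∆control. The group is called by its label throughout. Untreated Tbk1 was 6.67, 6.68, 6.22 and 6.48 log2 CPM in the same order. Since no label names the altered exons, neither RNA shows how much protein was lost. The 8 macrophage markers summed to between 16610 and 30391 CPM per library. Untreated libraries with the TBK1-cKD ∆IKKe label were at 22923.4 to 24288.5 CPM, and those of the other genotypes at 16610 to 18979.5. R837 libraries were at 22869.9 to 30391 CPM. Total counts per library ranged from 19727746 to 41323219, and replicate 2 of R837 TBK1-cKD ∆control had the fewest, with 14226 genes detected where the other 23 libraries had at least 17519. The nuclear RNAs Malat1, Neat1 and Xist had a mean of 8.94 to 9.46 log2 CPM in 14 libraries and of 5.25 to 5.64 in 10. All 12 untreated libraries were in the high set, with R837 TBK1-WT ∆control replicate 1 and R837 TBK1-cKD ∆IKKe replicate 3, so this level cannot be told apart from treatment in the other R837 libraries. Results that rest on these 3 R837 libraries are given with and without them where the call or the direction changes. Each R837 library of high nuclear RNA level also had the highest Ikbke of its group. This was 8.66 log2 CPM in TBK1-WT ∆control replicate 1 and 8.02 in the TBK1-cKD ∆IKKe-labelled replicate 3. The part of the nuclear RNA level in the Ikbke values was not tested.

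Promoter sequences are shown for Ptgs2 and Ptges, the members with the widest range of levels, and for Ptgs1, the other cyclooxygenase. RefSeq sequences of the 250 bases before a transcript start (build GRCm38.p6) were matched by symbol for 9 of the 10 genes. The windows are chr1:150099781-150100030 on the plus strand for Ptgs2, chr2:30903298-30903547 on the minus strand for Ptges and chr2:36230176-36230425 on the plus strand for Ptgs1. They are written 5′ to 3′ along the gene, with matches to searched motifs in capitals.
Ptgs2: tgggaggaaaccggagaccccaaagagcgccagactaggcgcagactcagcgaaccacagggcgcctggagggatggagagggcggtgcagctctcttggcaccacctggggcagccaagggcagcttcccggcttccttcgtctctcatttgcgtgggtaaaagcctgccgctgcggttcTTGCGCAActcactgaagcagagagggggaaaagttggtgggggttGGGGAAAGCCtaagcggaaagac
Ptges: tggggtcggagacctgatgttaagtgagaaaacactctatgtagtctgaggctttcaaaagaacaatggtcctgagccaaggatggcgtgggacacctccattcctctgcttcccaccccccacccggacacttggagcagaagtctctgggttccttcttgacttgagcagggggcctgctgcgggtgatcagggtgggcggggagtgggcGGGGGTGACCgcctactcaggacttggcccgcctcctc
Ptgs1: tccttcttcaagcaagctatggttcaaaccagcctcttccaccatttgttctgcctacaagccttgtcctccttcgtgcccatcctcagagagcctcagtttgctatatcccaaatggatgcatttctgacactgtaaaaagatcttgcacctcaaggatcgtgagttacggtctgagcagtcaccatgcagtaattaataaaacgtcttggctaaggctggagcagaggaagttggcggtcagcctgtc

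Letters were searched on both strands for the NF-kB pattern (GGG, any 5 bases, CC), TTGCNNAA (C/EBP), TGACGTCA (CRE), CACGTG (E-box), TGANTCA (AP-1), TATAAA (a core promoter element) and the ISRE core (GAAA, any 2 bases, GAAA). The Ptgs2 window held TTGCGCAA from 69 to 62 bases before the start and GGGGAAAGCC from 23 to 14 bases before it. In the Ptges window GGGGGTGACC lay from 38 to 29 bases before the start, and the Ptgs1 window held none of the 7 motifs. Of the windows not shown, that of Alox5, which fell after R837, held the NF-kB letters as GGGACTGGCC and as GGGCGGAGCC. Ptger4 had NF-kB letters as well. The windows of Pla2g4a, which rose, had none of them, nor had those of Tbxas1, Ptger2 and Ltc4s. The bases after the start used for Ptger2 matched no GENCODE transcript of that gene, so its window is less certain than the rest. The windows of Ptges and Tbxas1 lie inside the GENCODE span of the gene, before an internal transcript start. The NF-kB letters were present in 45.8% of all 32851 promoter windows, so a match to them is common. C/EBP letters were present in 9.56%, CRE in 1.55%, E-box in 6.02%, AP-1 in 6.75%, TATAAA in 12.4% and ISRE core in 2.98% of the windows. A match is a description of letters and not a measured binding site.

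Compared per length (CPM divided by the deposited gene width in kb), untreated TBK1-WT ∆control cells carried mainly Alox5ap (243 ± 7.23, mean ± SD, n = 3 libraries here and below) and Tbxas1 (46.1 ± 1.52). Ptger4 (10.2), Pla2g4a (10.1), Ltc4s (8.17) and Ptgs1 (8.08) came next, and Ptger2 stood at 1.88. Alox5 (0.599), Ptges (0.304) and Ptgs2 (0.168) were the lowest. After R837 the order in the same genotype was led by Ptges (149 ± 25.5), Alox5ap (145 ± 30.5) and Ptgs2 (57.8 ± 1.46), with Alox5 last at 0.105. In R837 libraries with the TBK1-cKD ∆IKKe label, Ptgs2 (782 ± 73.6) and Ptges (600 ± 89.8) were first, above Alox5ap (124 ± 24.5). Ptges and Ptgs2 were thus the lowest of the set per length in untreated TBK1-WT ∆control and among the 3 highest after 8 h of R837.

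**Figure D1:**
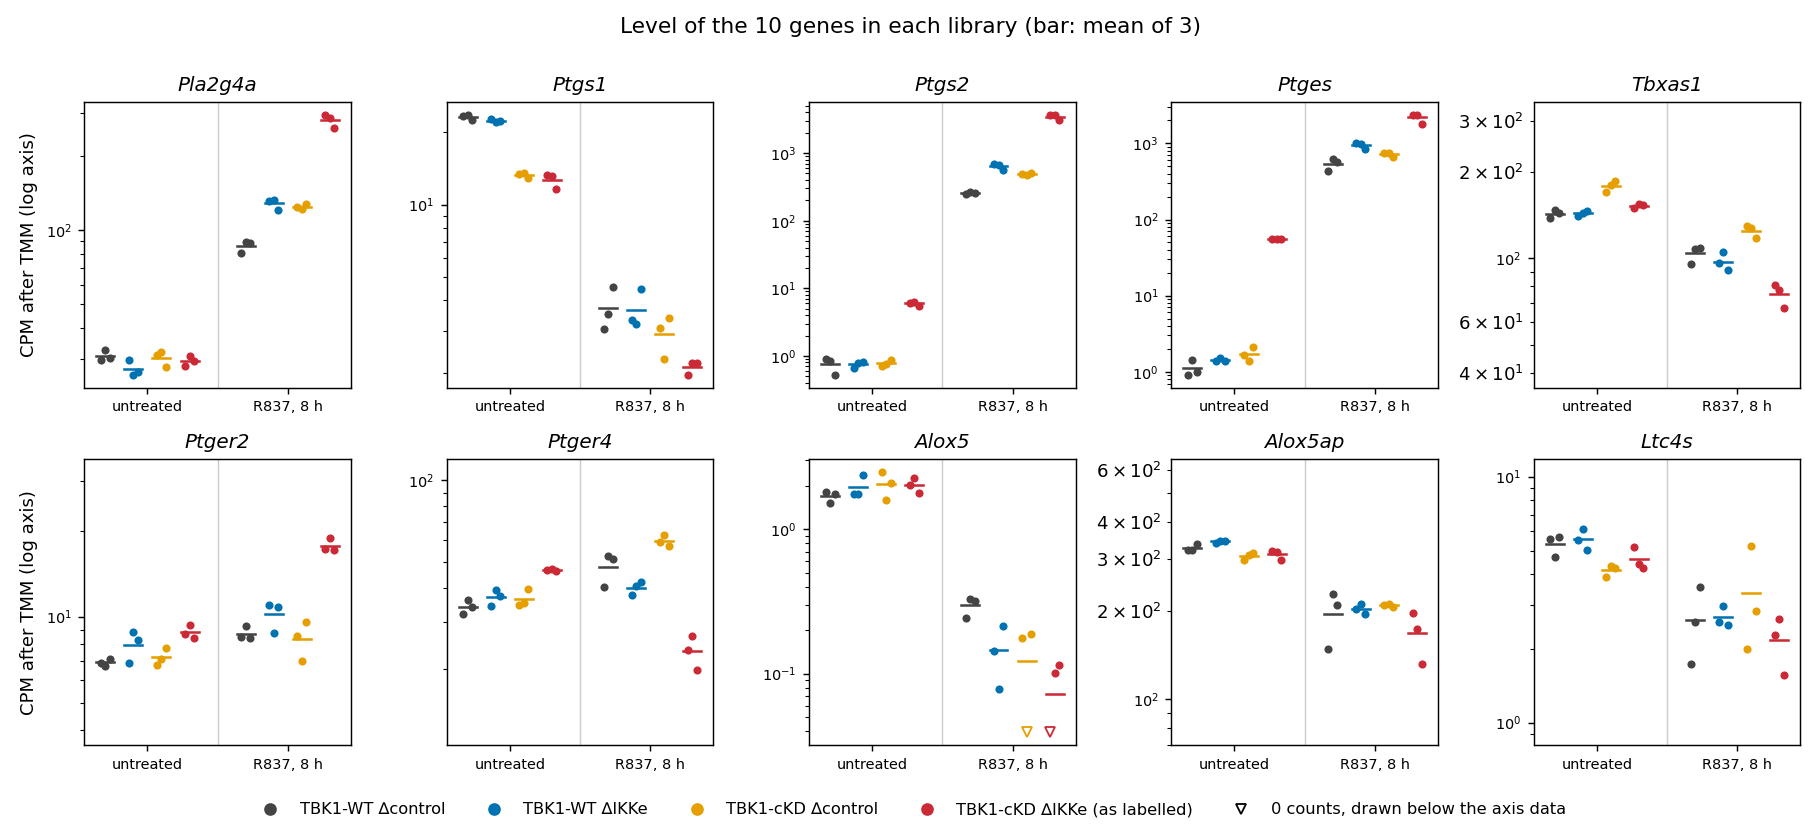
Level of each of the 10 genes in each of the 24 libraries, in CPM after TMM on a log axis that differs between panels, untreated at the left and after 8 h of R837 at the right of each panel. Points are libraries, bars are means of 3, and open triangles mark libraries with 0 counts; Ptgs2 and Ptges are higher in all R837 libraries than in any untreated library, Ptgs1 and Alox5 lower.

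After R837 the genes of phospholipase (Pla2g4a), cyclooxygenase 2 (Ptgs2) and prostaglandin E synthase (Ptges) rose in all 4 genotypes. Those of cyclooxygenase 1 (Ptgs1), thromboxane synthase (Tbxas1), 5-lipoxygenase (Alox5) and its partner protein (Alox5ap) fell in all 4, whereas Ltc4s fell in 3 and was not called in TBK1-cKD ∆control. In TBK1-WT ∆control 10 of 10 were called at an adjusted p under 0.05 (5 higher, 5 lower), where 62.6% of all tested genes were called (30.6% higher, 32% lower). In TBK1-WT ∆IKKe 9 were called (4 higher, 5 lower), beside 70.2% of all genes (32.4% higher, 37.8% lower). TBK1-cKD ∆control had 8 called (4 higher, 4 lower), beside 69.1% (31.6% higher, 37.5% lower). Libraries with the TBK1-cKD ∆IKKe label had 10 called (4 higher, 6 lower), beside 66.5% (31.6% higher, 34.8% lower). The median log2 change of the 10 genes was -0.06, -0.22, -0.07 and -0.94 in these genotypes, where that of all tested genes was -0.04, -0.07, -0.08 and -0.07. With most genes called in each genotype, little is read from the counts of members, and their sizes are given below. All adjusted p values are from the quasi-likelihood test of edgeR with Benjamini-Hochberg adjustment over the 14681 genes, and changes are given ± SE. In these bulk libraries, a change in RNA per cell and a change in the number of cells that carry it cannot be told apart.

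**Figure D2:**
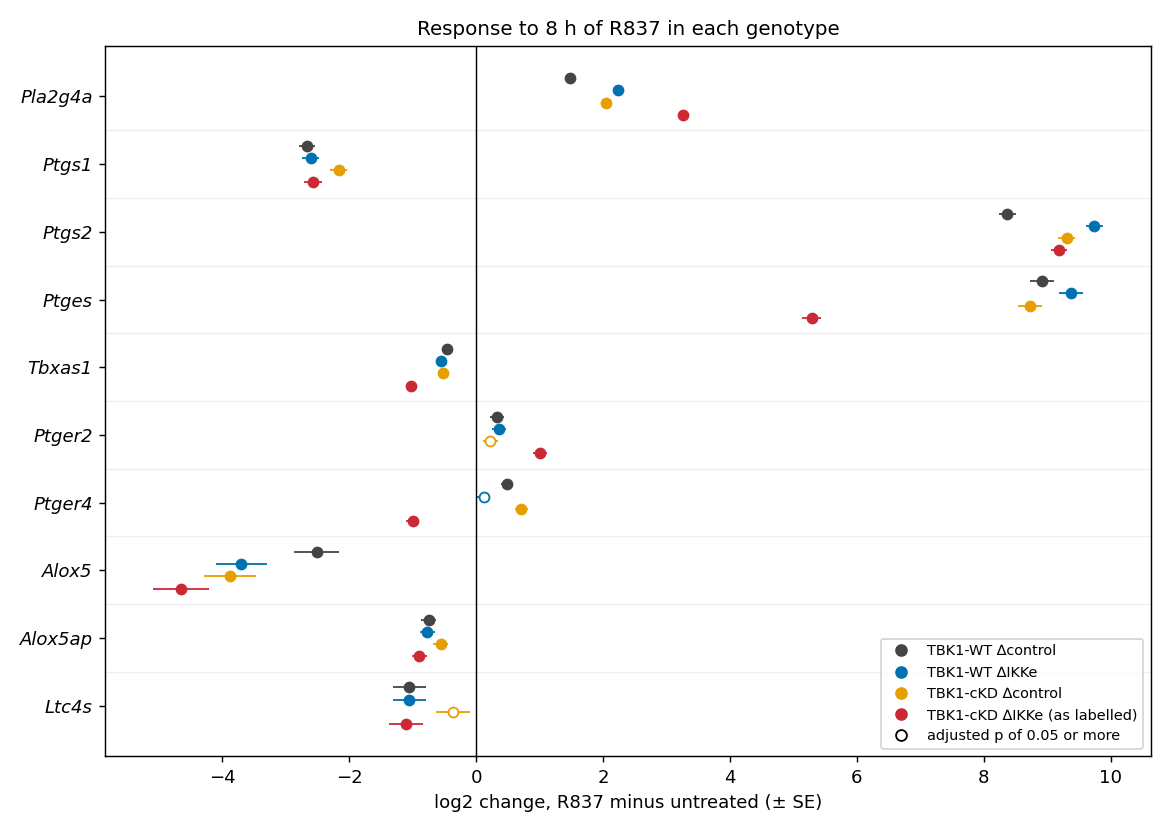
Log2 change after 8 h of R837 in each genotype, with the SE of the edgeR fit as bars; filled points passed an adjusted p of 0.05 and open points did not. Ptgs2 gained between 8.37 and 9.74 in all 4 genotypes, whereas Ptges gained 5.29 in libraries with the TBK1-cKD ∆IKKe label and 8.73 to 9.37 in the other 3.

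Pla2g4a (ENSMUSG00000056220, GRCm38 chr1:149829618-149961290, minus strand) encodes the phospholipase that supplies arachidonic acid. Untreated, all 12 libraries lay between 25.8 and 32.6 CPM, and each genotype overlapped its neighbour in level. After R837 the 3 libraries were at 80.3, 89.5 and 88.1 CPM in TBK1-WT ∆control, 131, 133 and 121 in TBK1-WT ∆IKKe, and 124, 121 and 128 in TBK1-cKD ∆control. Those labelled TBK1-cKD ∆IKKe were at 295, 285 and 261. Every R837 group was above every untreated library, the 2 middle genotypes overlapped each other, and the lowest and highest groups overlapped no other. The rise was 1.48 ± 0.07 log2 in TBK1-WT ∆control (adjusted p = 1.14e-13), 2.23 ± 0.07 in TBK1-WT ∆IKKe, 2.04 ± 0.07 in TBK1-cKD ∆control and 3.26 ± 0.07 in libraries with the TBK1-cKD ∆IKKe label (adjusted p = 6.11e-19).

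Ptgs1 (ENSMUSG00000047250, chr2:36230426-36252272, plus strand) encodes cyclooxygenase 1, the form known as constitutive in many tissues, and lacks the searched motifs in the window shown above. Untreated levels were 23.4, 23.7 and 22.5 CPM in TBK1-WT ∆control and 22.6, 22.0 and 22.2 in TBK1-WT ∆IKKe. They were 13.3, 13.5 and 12.9 in TBK1-cKD ∆control and 13.2, 13.1 and 11.6 in libraries with the TBK1-cKD ∆IKKe label. The TBK1-WT libraries were thus above all TBK1-cKD libraries, and the genotypes overlapped within each pair. After R837 all 12 libraries were lower than any untreated one, between 1.97 and 4.54 CPM. The fall was -2.66 ± 0.13 log2 in TBK1-WT ∆control (adjusted p = 1.98e-13), -2.60 ± 0.13 in TBK1-WT ∆IKKe, -2.16 ± 0.14 in TBK1-cKD ∆control and -2.57 ± 0.14 in libraries with the TBK1-cKD ∆IKKe label. Its exons in the GENCODE annotation share 148 bases with Gm43621, and without strand such reads cannot be assigned to 1 of the 2 genes. Whether the shared bases were among those counted is not known, here and for the overlaps given below. Sums of the stromal, the neutrophil and the mast cell and basophil markers were also higher in every untreated TBK1-WT library than in any untreated TBK1-cKD library. Those of the platelet and megakaryocyte, eosinophil, lymphocyte and dendritic cell markers overlapped between TBK1-WT and TBK1-cKD. The 6 stromal markers summed to 35.8 to 46.7 CPM in the TBK1-WT libraries, 23.1 to 23.7 in TBK1-cKD ∆control and 13.9 to 19.9 in libraries with the TBK1-cKD ∆IKKe label, and the neutrophil markers to 5.28 to 8.75 CPM in TBK1-WT and 1.26 to 1.96 in TBK1-cKD libraries. The part of these cells in the Ptgs1 difference was not tested.

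Ptgs2 (ENSMUSG00000032487, chr1:150100031-150108227, plus strand) encodes cyclooxygenase 2, the inducible form. Untreated levels were 0.895, 0.827 and 0.528 CPM in TBK1-WT ∆control, 0.672, 0.785 and 0.799 in TBK1-WT ∆IKKe, and 0.709, 0.763 and 0.854 in TBK1-cKD ∆control. In untreated libraries with the TBK1-cKD ∆IKKe label they were 6.13, 6.25 and 5.56. The first 3 groups overlapped one another at 93, 76 and 76 counts per group, and the last lay above all of them with 583 counts. After R837 the libraries were at 251, 264 and 257 CPM in TBK1-WT ∆control, 691, 663 and 565 in TBK1-WT ∆IKKe and 488, 472 and 505 in TBK1-cKD ∆control. Libraries with the TBK1-cKD ∆IKKe label reached 3619, 3719 and 3108 CPM. No R837 group overlapped another, with TBK1-WT ∆control the lowest. The rise was 332-fold in TBK1-WT ∆control (8.37 ± 0.13 log2, adjusted p = 6.49e-21), 857-fold in TBK1-WT ∆IKKe (9.74 ± 0.14) and 635-fold in TBK1-cKD ∆control (9.31 ± 0.14). It was 583-fold in libraries with the TBK1-cKD ∆IKKe label (9.19 ± 0.12), from an untreated level that was already higher.

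Ptges (ENSMUSG00000050737, chr2:30889471-30929863, minus strand) encodes microsomal prostaglandin E synthase 1, which makes prostaglandin E2 from the product of the cyclooxygenases. Untreated libraries were at 0.916, 1.42 and 0.989 CPM in TBK1-WT ∆control, 1.39, 1.53 and 1.37 in TBK1-WT ∆IKKe and 1.64, 1.38 and 2.12 in TBK1-cKD ∆control. Those labelled TBK1-cKD ∆IKKe were at 56.0, 55.5 and 56.1. The first 3 groups overlapped, and the last lay far above all of their libraries. After R837 levels were 438, 616 and 572 CPM in TBK1-WT ∆control, 1000.5, 972 and 854 in TBK1-WT ∆IKKe, 753, 749 and 668 in TBK1-cKD ∆control and 2391, 2364 and 1811 in libraries with the TBK1-cKD ∆IKKe label. These 4 groups did not overlap. The rise was 486-fold in TBK1-WT ∆control (8.92 ± 0.19 log2, adjusted p = 2.13e-19), 663-fold in TBK1-WT ∆IKKe (9.37 ± 0.19), 424-fold in TBK1-cKD ∆control (8.73 ± 0.18) and 39.2-fold in libraries with the TBK1-cKD ∆IKKe label (5.29 ± 0.15).

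Tbxas1 (ENSMUSG00000029925, chr6:38875404-39084585, plus strand) encodes thromboxane A synthase, which uses the same prostaglandin H2. Untreated levels were 138, 147 and 144 CPM in TBK1-WT ∆control, 140, 144 and 146 in TBK1-WT ∆IKKe, 170, 180 and 186 in TBK1-cKD ∆control and 150, 154 and 154 in libraries with the TBK1-cKD ∆IKKe label. After R837 they were 95.9, 108 and 109, then 96.5, 105 and 90.9, then 130, 128 and 118, and 81.1, 77.7 and 67.2 in the same order. TBK1-cKD ∆control was highest at both times and overlapped no other genotype. The gene fell in all 4 genotypes, by 0.46 ± 0.07 log2 in TBK1-WT ∆control (adjusted p = 7.26e-06), 0.56 ± 0.07 in TBK1-WT ∆IKKe, 0.51 ± 0.07 in TBK1-cKD ∆control and 1.02 ± 0.07 in libraries with the TBK1-cKD ∆IKKe label (adjusted p = 3.69e-11). The 6 markers of platelets and megakaryocytes, cells known for this enzyme, summed to between 127 and 247 CPM over all libraries. Pf4, which BMDMs are known to express, made up at least 126 of it in each. The highest levels of the rest of that list were 2.84 CPM for Ppbp, 1.01 for Gp6 and 0.426 for Itga2b. They were 0.0986 CPM for Gp9 and 0.0639 for Gp1bb. The exons share 144 bases with Gm42962.

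Within a library, the ratio of Ptgs2 to Ptgs1 per length summarised the change in cyclooxygenase makeup. Untreated it averaged 0.0207 ± 0.00498 in TBK1-WT ∆control, then 0.0217 ± 0.00228 in TBK1-WT ∆IKKe, 0.0377 ± 0.00440 in TBK1-cKD ∆control and 0.305 ± 0.00577 in libraries with the TBK1-cKD ∆IKKe label. After R837 it averaged 45.9 ± 8.48, 117 ± 30.6, 111 ± 20.1 and 1061 ± 138 in the same order. Ptgs1 RNA was thus the more abundant of the 2 in every untreated library and Ptgs2 RNA in every R837 library. The ratio of Ptges to Tbxas1 went from 0.00657, 0.00846, 0.00815 and 0.311 untreated to 4.41, 8.23, 4.92 and 24.6 after R837. In both ratios libraries with the TBK1-cKD ∆IKKe label stood above all others at each time.

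**Figure D3:**
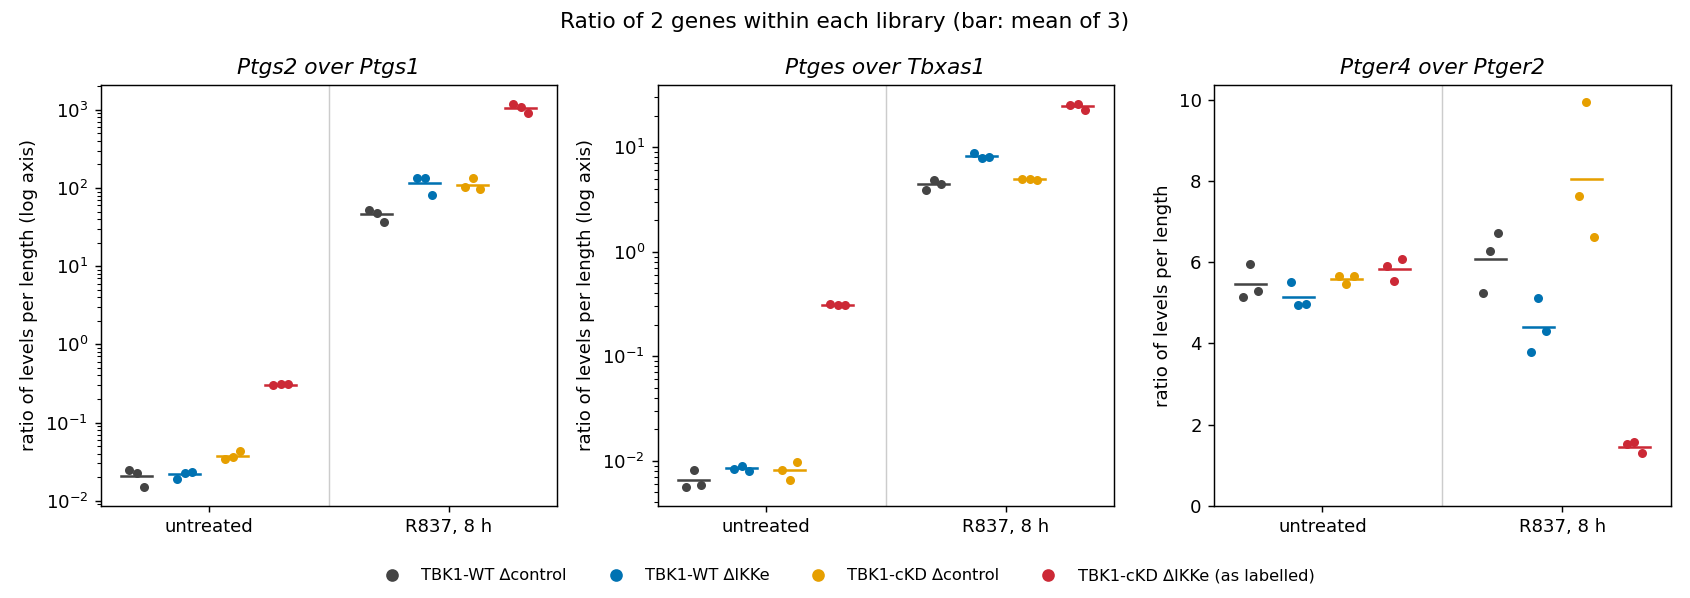
Ratio of levels per length within each library, on log axes for Ptgs2 over Ptgs1 and Ptges over Tbxas1 and a linear axis for Ptger4 over Ptger2. Points are libraries and bars are means of 3; after R837 the Ptger4 to Ptger2 ratio averages 1.46 in libraries with the TBK1-cKD ∆IKKe label and between 4.40 and 8.06 in the other 3 genotypes.

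Ptger2 and Ptger4 encode EP2 and EP4, the receptors of prostaglandin E2 that raise cyclic AMP. Ptger2 (ENSMUSG00000037759, chr14:44988195-45003820, plus strand) was at 6.90, 6.71 and 7.12 CPM in untreated TBK1-WT ∆control and at 8.47, 9.26 and 8.40 after R837. It was at 6.88, 8.81 and 8.28, then 11, 8.77 and 10.8 in TBK1-WT ∆IKKe, and at 6.76, 7.12 and 7.76, then 8.56, 6.99 and 9.58 in TBK1-cKD ∆control. Libraries with the TBK1-cKD ∆IKKe label were at 8.71, 9.37 and 8.41 untreated and at 17.3, 18.8 and 17.1 after R837. Only this last group stood clear of all others, the remaining 7 groups overlapping their neighbours in level. The rise there was 1.01 ± 0.11 log2 (adjusted p = 6.48e-08), and it was 0.33 ± 0.11 in TBK1-WT ∆control (adjusted p = 0.0139) and 0.36 ± 0.11 in TBK1-WT ∆IKKe (adjusted p = 0.0077). The change of 0.23 ± 0.11 in TBK1-cKD ∆control was not called (adjusted p = 0.0846).

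The small Ptger2 changes depended on which libraries were used. In TBK1-WT ∆control the value without R837 replicate 2 was 0.29 (adjusted p = 0.0601, with 0.00144 to 0.0601 over the alternatives), and in TBK1-WT ∆IKKe it was 0.26 without untreated replicate 1 (adjusted p = 0.0653, with 0.000285 to 0.102 over the alternatives). In TBK1-cKD ∆control it was 0.33 without R837 replicate 2, the library of fewest detected genes (adjusted p = 0.0121), and 0.40 without all 3 R837 libraries that stand apart (adjusted p = 0.00224, with 0.00224 to 0.387 over the alternatives). The exons of Ptger2 share 246 bases with Gm17173 and Gm49364.

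Ptger4 (ENSMUSG00000039942, chr15:5206661-5244187, minus strand) was at 32, 36.1 and 34.1 CPM in untreated TBK1-WT ∆control, 34.2, 39.4 and 37.2 in TBK1-WT ∆IKKe, 34.5, 35.1 and 39.7 in TBK1-cKD ∆control and 46.4, 46.9 and 46.3 in libraries with the TBK1-cKD ∆IKKe label. After R837 it was at 40.2, 52.5 and 50.9, then 37.6, 40.5 and 42.0, then 59.1, 62.8 and 57.2, and 23.6, 26.6 and 19.9. The group that was highest untreated was thus the lowest after R837. The gene rose by 0.49 ± 0.10 log2 in TBK1-WT ∆control (adjusted p = 0.000249) and by 0.71 ± 0.10 in TBK1-cKD ∆control (adjusted p = 2.9e-06), and it fell by 0.99 ± 0.10 in libraries with the TBK1-cKD ∆IKKe label (adjusted p = 2.41e-08). In TBK1-WT ∆IKKe the change was 0.12 ± 0.10 (adjusted p = 0.301). There it was -0.23 when the model held the nuclear RNA level (adjusted p = 0.0446) and without the 3 R837 libraries that stand apart 0.18 (adjusted p = 0.0122, with 0.0122 to 0.633 over the alternatives), so no direction is given for it. Its GENCODE exons, 6648 bases against a deposited width of 3327, share 1097 bases with Gm15937 and Ttc33. Reads from shared bases, where these were counted, cannot be separated without strand.

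Per length, Ptger4 exceeded Ptger2 by 5.46 ± 0.434 times in untreated TBK1-WT ∆control, 5.15 ± 0.313 times in TBK1-WT ∆IKKe, 5.59 ± 0.116 times in TBK1-cKD ∆control and 5.84 ± 0.276 times in libraries with the TBK1-cKD ∆IKKe label. After R837 the ratios were 6.08 ± 0.751, 4.40 ± 0.674, 8.06 ± 1.70 and 1.46 ± 0.146. The last group was below every other library.

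Alox5 (ENSMUSG00000025701, chr6:116410077-116461178, minus strand) encodes 5-lipoxygenase, the first enzyme of leukotriene synthesis. Untreated it was at 1.81, 1.51 and 1.75 CPM in TBK1-WT ∆control, 1.75, 1.74 and 2.37 in TBK1-WT ∆IKKe, 2.48, 1.60 and 2.08 in TBK1-cKD ∆control and 2.03, 2.27 and 1.79 in libraries with the TBK1-cKD ∆IKKe label, so the genotypes overlapped. After R837 TBK1-WT ∆control libraries were at 0.245, 0.329 and 0.318 CPM and all others at 0.213 or less. These levels rest on 28, 12, 11 and 7 counts per group. Replicate 2 of TBK1-cKD ∆control and the TBK1-cKD ∆IKKe-labelled replicate 1 had 0 counts, which allows up to 3 counts, or 0.166 and 0.114 CPM (counting error only). Every R837 library was below every untreated one, and the fall was -2.51 ± 0.35 log2 in TBK1-WT ∆control (adjusted p = 2.32e-06), -3.70 ± 0.40 in TBK1-WT ∆IKKe, -3.87 ± 0.41 in TBK1-cKD ∆control and -4.65 ± 0.44 in libraries with the TBK1-cKD ∆IKKe label (adjusted p = 6.85e-09).

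Alox5ap (ENSMUSG00000060063, chr5:149264767-149288153, plus strand) encodes FLAP, the membrane protein that presents arachidonic acid to 5-lipoxygenase. It was between 296 and 346 CPM in all untreated libraries and between 132 and 227 after R837, with no overlap. R837 libraries of TBK1-WT ∆control were at 149, 227 and 208 CPM and those labelled TBK1-cKD ∆IKKe at 197, 173 and 132, the lowest of each being the library of high nuclear RNA level. The fall was -0.74 ± 0.12 log2 in TBK1-WT ∆control (adjusted p = 1.52e-05), -0.77 ± 0.12 in TBK1-WT ∆IKKe, -0.56 ± 0.12 in TBK1-cKD ∆control and -0.89 ± 0.12 in libraries with the TBK1-cKD ∆IKKe label. Its exons share 189 bases with Gm19719.

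Ltc4s (ENSMUSG00000020377, chr11:50236461-50238616, minus strand) encodes leukotriene C4 synthase, which joins glutathione to leukotriene A4. Untreated levels lay between 3.92 and 6.10 CPM. After R837 they were 1.74, 2.56 and 3.54 in TBK1-WT ∆control, 2.56, 2.99 and 2.49 in TBK1-WT ∆IKKe, 1.99, 5.22 and 2.84 in TBK1-cKD ∆control and 2.27, 2.64 and 1.56 in libraries with the TBK1-cKD ∆IKKe label. The value of 5.22 belongs to replicate 2, the library of fewest detected genes, and is the only R837 value within the untreated range. The gene fell by 1.05 ± 0.26 log2 in TBK1-WT ∆control (adjusted p = 0.00137), by 1.05 ± 0.26 in TBK1-WT ∆IKKe and by 1.11 ± 0.27 in libraries with the TBK1-cKD ∆IKKe label (adjusted p = 0.00105). In TBK1-cKD ∆control the change was -0.37 ± 0.26 (adjusted p = 0.223), and -0.80 without replicate 2 (adjusted p = 0.00604) or -0.74 without the 3 R837 libraries that stand apart (adjusted p = 0.00027, with 0.00027 to 0.809 over the alternatives). Its exons share 268 bases with Gm26542.

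Markers of other cells known for these enzymes were measured beside them. The 8 neutrophil markers summed to 1.26 to 8.75 CPM untreated and to 21.4 to 216 CPM after R837, with 123 to 216 in libraries with the TBK1-cKD ∆IKKe label. S100a8, also known as inducible in macrophages, reached 213 CPM. The highest levels of the rest of the list were 3.94 CPM for Camp, 3.09 for S100a9, 2.13 for Ltf and 1.73 for Ngp. They were 0.462 CPM for Mpo, 0.0757 for Elane and 0.0379 for Ly6g. The 8 mast cell and basophil markers summed to 1.45 to 3.97 CPM untreated and 0 to 0.875 after R837, with Kit the highest at 3.54 and Tpsb2 and Cma1 at 0 in every library. The 4 eosinophil markers stayed at or below 0.327 CPM in sum, and Epx was at 0. Stromal markers summed to 13.9 to 46.7 CPM untreated, with the values by genotype given beside Ptgs1. After R837 they summed to 34.0 to 48.6 CPM in TBK1-WT libraries and to 25.6 to 37.4 in TBK1-cKD libraries. The lymphocyte and dendritic cell lists reached at most 0.468 and 1.61 CPM. The part of the mast cell and basophil list in the lower Alox5 and Ltc4s was not tested.

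Before treatment, libraries with the TBK1-cKD ∆IKKe label had higher Ptges and Ptgs2 RNA and lower Ptgs1 RNA than TBK1-WT ∆control. In this comparison 5 of the 10 genes were called (4 higher, 1 lower), where 13.6% of all genes were. Ptges was 50.1-fold higher (5.65 ± 0.17 log2, adjusted p = 1.01e-15) and Ptgs2 7.71-fold higher (2.95 ± 0.13 log2, adjusted p = 6.43e-13). Ptger4 was higher by 0.45 ± 0.10 log2 (adjusted p = 0.00322) and Ptger2 by 0.35 ± 0.11 (adjusted p = 0.0397), whereas Ptgs1 was lower at -0.88 ± 0.12 (adjusted p = 1.51e-05). The Ptger2 call was lost without any 1 of the 6 libraries compared, with adjusted p of 0.0609 to 0.153 then and 0.00156 to 0.153 over all alternatives. The untreated Ptges level of about 56 CPM in these libraries compares with 438 to 616 CPM in R837 TBK1-WT ∆control.

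The same libraries were set against the other 2 genotypes in comparisons added after values had been seen. Against untreated TBK1-WT ∆IKKe 4 members were called, beside 10.2% of all genes, with Ptges higher by 5.30 ± 0.17 log2 and Ptgs2 by 3.00 ± 0.14 (adjusted p = 1.06e-12). Against untreated TBK1-cKD ∆control 4 were called, beside 11.4%, with Ptges higher by 5.03 ± 0.17 and Ptgs2 by 2.96 ± 0.14 (adjusted p = 1.31e-12). Ptgs1 was lower than in TBK1-WT ∆IKKe, at -0.82 ± 0.12 (adjusted p = 4.43e-05), and did not pass against TBK1-cKD ∆control, at -0.07 ± 0.12 (adjusted p = 0.871). The other calls in these comparisons, Ptger4 in both and Tbxas1 against TBK1-cKD ∆control, were each lost when any of 5 of the 6 libraries was left out. The adjusted p over the alternatives ran from 0.000303 to 0.174 for Ptger4 against TBK1-WT ∆IKKe, from 0.000132 to 0.105 for Ptger4 against TBK1-cKD ∆control and from 0.000688 to 0.161 for Tbxas1.

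The genotypes labelled as lacking 1 kinase were compared with TBK1-WT ∆control in the same way. TBK1-WT ∆IKKe against TBK1-WT ∆control gave 0 calls among the 10, beside 0% of all genes in edgeR. At an unadjusted p under 0.05 there were 422 genes, 1 of them a member (Pla2g4a, -0.18 ± 0.07 log2), and DESeq2 called 1 gene. TBK1-cKD ∆control against TBK1-WT ∆control gave 2 calls, beside 5.05% of all genes. Ptgs1 was lower at -0.81 ± 0.12 log2 (adjusted p = 0.000177) and Tbxas1 higher by 0.32 ± 0.07 (adjusted p = 0.00662). Without TBK1-WT ∆control replicate 1 the Tbxas1 difference was 0.29 (adjusted p = 0.0502, with 4.43e-05 to 0.0502 over the alternatives). Ptges, at 0.61 ± 0.21 (adjusted p = 0.117), was 0.84 without TBK1-WT ∆control replicate 2 (adjusted p = 0.0472, with 0.0225 to 0.486 over the alternatives).

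**Figure D4:**
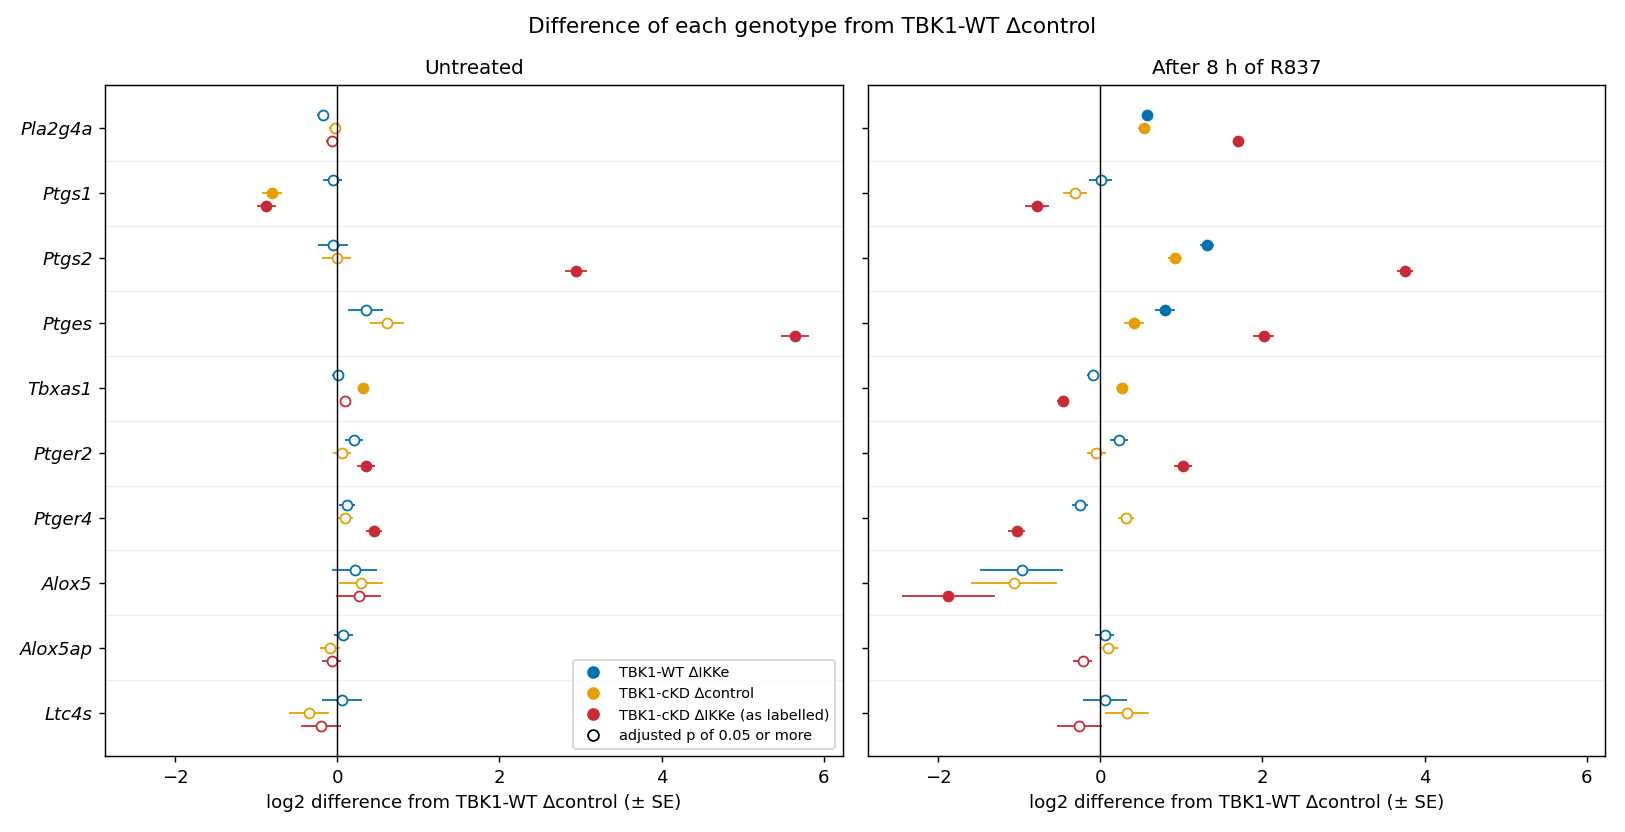
Log2 difference of each genotype from TBK1-WT ∆control, untreated at the left and after 8 h of R837 at the right, with SE bars; filled points passed an adjusted p of 0.05. Untreated, libraries with the TBK1-cKD ∆IKKe label lie at 5.65 for Ptges and 2.95 for Ptgs2, and after R837 at 2.01 and 3.76.

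After R837 all 3 other genotypes had higher Pla2g4a, Ptgs2 and Ptges RNA than TBK1-WT ∆control. In TBK1-WT ∆IKKe these were the only 3 members called, beside 1.85% of all genes. Pla2g4a was higher by 0.58 ± 0.07 log2 (adjusted p = 4.46e-05), Ptgs2 by 1.31 ± 0.09 (adjusted p = 2.46e-08) and Ptges by 0.80 ± 0.12 (adjusted p = 0.000821). In TBK1-cKD ∆control 4 were called, beside 8.89% of all genes, with Pla2g4a higher by 0.53 ± 0.07 (adjusted p = 4.59e-05) and Ptgs2 by 0.92 ± 0.09 (adjusted p = 1.2e-06). Fitted on the 6 libraries of a comparison alone, the Pla2g4a calls were lost, at an adjusted p of 0.0577 in TBK1-WT ∆IKKe (1.08e-12 to 0.0577 over the alternatives) and 0.0536 in TBK1-cKD ∆control (2.92e-11 to 0.0536), as was Ptges in TBK1-WT ∆IKKe (0.108, with 3.74e-07 to 0.108). Ptger4 in TBK1-WT ∆IKKe, at -0.25 ± 0.10 (adjusted p = 0.272), was at -0.37 without the 3 R837 libraries that stand apart (adjusted p = 0.00105, with 0.00105 to 0.577 over the alternatives).

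The other 2 calls in TBK1-cKD ∆control were weak. Ptges was higher by 0.42 ± 0.12 log2 (adjusted p = 0.0386) and by 0.27 without TBK1-WT ∆control replicate 1 (adjusted p = 0.22). Without replicate 1 or 2 of TBK1-cKD ∆control the adjusted p was 0.0872 and 0.119 (0.00337 to 0.315 over the alternatives). Tbxas1 was higher by 0.26 ± 0.07 (adjusted p = 0.0196) and by 0.20 without TBK1-WT ∆control replicate 1 (adjusted p = 0.174), with 0.0625 and 0.0663 without replicate 1 or 2 of TBK1-cKD ∆control (0.00538 to 0.339 over the alternatives). Ptger4, at 0.32 ± 0.10, had an adjusted p of 0.0503 and one of 0.0286 without TBK1-WT ∆control replicate 2 or 0.0486 without replicate 3 (0.026 to 0.429 over the alternatives).

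R837 libraries with the TBK1-cKD ∆IKKe label differed from R837 TBK1-WT ∆control in 8 of the 10 genes (4 higher, 4 lower), beside 32.2% of all genes. Higher were Ptgs2 at 13.5-fold (3.76 ± 0.09 log2, adjusted p = 1.58e-16), Ptges at 4.04-fold (2.01 ± 0.13), Pla2g4a at 3.26-fold (1.70 ± 0.07) and the receptor gene Ptger2 at 2.03-fold (1.02 ± 0.11). Lower were Ptger4 (-1.03 ± 0.10, adjusted p = 6.1e-08), Ptgs1 (-0.78 ± 0.15, adjusted p = 0.000313), Tbxas1 (-0.47 ± 0.07, adjusted p = 1.79e-05) and Alox5 (-1.88 ± 0.57, adjusted p = 0.0147). The Alox5 value, from 7 counts against 28, was -1.39 without the TBK1-cKD ∆IKKe-labelled replicate 1 (adjusted p = 0.0596, with 0.00986 to 0.0596 over the alternatives). Alox5ap at -0.22 ± 0.12 (adjusted p = 0.182) and Ltc4s at -0.26 ± 0.28 (adjusted p = 0.55) did not pass. Alox5ap was -0.38 without TBK1-WT ∆control replicate 1 (adjusted p = 0.00633) and -0.35 without the TBK1-cKD ∆IKKe-labelled replicate 1 (adjusted p = 0.0334). Without the 3 R837 libraries that stand apart it was -0.23 (adjusted p = 0.00257, with 0.000426 to 0.635 over the alternatives).

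In the added comparisons after R837 the prostaglandin E2 genes and both receptors kept these directions. Against TBK1-WT ∆IKKe 7 members were called (4 higher, 3 lower), beside 30.6% of all genes. Of the lower ones only Ptger4 is given here. Ptgs2 was higher by 2.44 ± 0.09 log2, Ptges by 1.22 ± 0.12, Pla2g4a by 1.13 ± 0.07 and Ptger2 by 0.80 ± 0.11, and Ptger4 was lower at -0.78 ± 0.10 (adjusted p = 4.48e-06). Against TBK1-cKD ∆control 8 were called, beside 34.5%, with Ptgs2 higher by 2.83 ± 0.09, Ptges by 1.60 ± 0.13, Pla2g4a by 1.17 ± 0.07 and Ptger2 by 1.07 ± 0.11, and Ptger4 lower at -1.35 ± 0.10 (adjusted p = 2e-09). The other calls against TBK1-cKD ∆control were Tbxas1 (-0.73 ± 0.07, adjusted p = 5.74e-08), Ptgs1 (-0.47 ± 0.16, adjusted p = 0.0241, with 0.00528 to 0.238 over the alternatives) and Alox5ap (-0.32 ± 0.12, adjusted p = 0.0451, with 0.0074 to 0.262). The Ptgs1 call was lost without replicate 1 or 3 of TBK1-cKD ∆control or the TBK1-cKD ∆IKKe-labelled replicate 1 (adjusted p = 0.0745, 0.11 and 0.0659), and on the 6 libraries alone (0.238). The Alox5ap call was lost without any of 5 of the 6 libraries (adjusted p = 0.0582 to 0.262) and on the 6 libraries alone (0.165), and its value was -0.17 without the TBK1-cKD ∆IKKe-labelled replicate 3. Against TBK1-WT ∆IKKe a call was gained for Alox5ap without the TBK1-cKD ∆IKKe-labelled replicate 1 (-0.41, adjusted p = 0.0154). Against TBK1-cKD ∆control one was gained for Ltc4s without TBK1-cKD ∆control replicate 1 (-0.88, adjusted p = 0.0164). These comparisons share the libraries with the TBK1-cKD ∆IKKe label and are not independent of each other.

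Whether the response itself differed was tested as the difference of 2 log2 changes, each minus that of TBK1-WT ∆control. In TBK1-WT ∆IKKe the rise of Pla2g4a was larger by 0.75 ± 0.10 (adjusted p = 0.00153) and that of Ptgs2 by 1.37 ± 0.20 (adjusted p = 0.00199), 2 members beside 0.245% of all genes. The Ptger4 difference of -0.37 ± 0.14 there (adjusted p = 0.545) was -0.48 without the 3 R837 libraries that stand apart (adjusted p = 0.00442, with 0.00442 to 0.905 over the alternatives). In TBK1-cKD ∆control the same 2 genes were called, beside 0.879%, with Pla2g4a at 0.56 ± 0.10 (adjusted p = 0.00718) and Ptgs2 at 0.94 ± 0.20 (adjusted p = 0.0282). Both calls of TBK1-cKD ∆control were lost when the groups compared were fitted alone (adjusted p = 0.0573 for Pla2g4a and 0.0833 for Ptgs2). That of Ptgs2 was also lost without replicate 1 or 2 of untreated TBK1-WT ∆control (adjusted p = 0.183 and 0.112), replicate 1 or 2 of untreated TBK1-cKD ∆control (0.101 and 0.0866), R837 TBK1-WT ∆control replicate 1 (0.0808) or R837 TBK1-cKD ∆control replicate 3 (0.0536), with 0.0063 to 0.183 over the alternatives.

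In libraries with the TBK1-cKD ∆IKKe label 7 members had a response that differed from TBK1-WT ∆control, beside 17.3% of all genes. The rise was larger for Pla2g4a by 1.78 ± 0.10 (adjusted p = 4.69e-11), Ptgs2 by 0.81 ± 0.17 (adjusted p = 0.00158) and Ptger2 by 0.67 ± 0.16 (adjusted p = 0.00402). It was smaller for Ptges, at -3.63 ± 0.21 (adjusted p = 1e-10), where the untreated level was 50.1-fold higher and the R837 level 4.04-fold higher than in TBK1-WT ∆control. Ptger4 (-1.48 ± 0.14, adjusted p = 1.35e-07) rose in 1 and fell in the other, Tbxas1 fell further (-0.56 ± 0.10, adjusted p = 0.000243), and so did Alox5 (-2.14 ± 0.64, adjusted p = 0.0228). The Alox5 difference was -1.66 without the R837 TBK1-cKD ∆IKKe-labelled replicate 1 (adjusted p = 0.0647), and its adjusted p was 0.054 without R837 TBK1-WT ∆control replicate 2. On the libraries of high nuclear RNA level alone, which hold 1 R837 library of each genotype compared, the difference was -1.31.

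Within R837 TBK1-WT ∆control, the library of high nuclear RNA level was the lowest of the 3 for 9 of the 10 genes, and within R837 libraries with the TBK1-cKD ∆IKKe label it was the lowest for 8. For 7 genes this held in both groups, among them Ptges (438 against 572 and 616 CPM, and 1811 against 2364 and 2391 CPM). The share of all tested genes that did so was not computed, so nothing particular to the members is read from these counts. The part of this level in the results was not tested beyond the alternatives given here. With the level as a term, or without the 3 R837 libraries that stand apart, the calls of Ptgs2, Ptges and Pla2g4a in the 4 R837 responses remained. In TBK1-WT ∆IKKe and TBK1-cKD ∆control the level coincides with treatment, and without the 3 libraries it does so in every genotype. The term rests on 1 R837 library of high level in each of the remaining genotypes. These fits therefore cannot separate the level from treatment.

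Other genes of the pathway were taken from a list of 52, all present in the files and 33 of them tested. After R837, 12 were higher and 16 lower in TBK1-WT ∆control, 12 and 16 in TBK1-WT ∆IKKe, 12 and 13 in TBK1-cKD ∆control, and 13 and 15 in libraries with the TBK1-cKD ∆IKKe label. Over all tested genes, 62.6%, 70.2%, 69.1% and 66.5% were called in these genotypes. The median log2 change of the 33 genes was -0.28, -0.36, -0.12 and -0.20, beside -0.04, -0.07, -0.08 and -0.07 for all genes. Those that were not tested, for too few counts, included the prostanoid receptor genes Ptger3, Ptgdr, Ptgdr2, Ptgfr and Tbxa2r, the prostacyclin synthase gene Ptgis and Alox15. Of the 21 that changed at least 2-fold in a response, the 12 of highest level per length are named next.

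Both transporter genes tested rose in every genotype. Abcc4, which encodes an exporter of prostaglandins, went from 33.0 ± 2.09 to 116 ± 7.73 CPM in TBK1-WT ∆control (1.81 ± 0.07 log2, adjusted p = 2.07e-15), and Abcc1, an exporter of leukotriene C4, from 175 ± 2.13 to 592 ± 3.62 CPM (1.76 ± 0.04, adjusted p = 1.49e-18). Across genotypes the gains were 1.71 to 2.32 for Abcc4 and 1.73 to 1.92 for Abcc1. Hpgd, which encodes the enzyme that inactivates prostaglandin E2, fell from 14.3 ± 1.42 to 0.647 ± 0.168 CPM in TBK1-WT ∆control (-4.50 ± 0.20, adjusted p = 4.25e-14) and by -4.74, -4.68 and -5.64 in the other genotypes. Its R837 means there were 0.442, 0.360 and 0.195 CPM in the same order, so the sizes rest on few counts. Zadh2, a prostaglandin reductase gene, rose by 0.56 ± 0.08 log2 in TBK1-WT ∆control and by 1.21 ± 0.08 in libraries with the TBK1-cKD ∆IKKe label.

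The other terminal synthase genes moved less than Ptges. Ptges2 rose by 0.50 ± 0.10 log2 in TBK1-WT ∆control (adjusted p = 0.000264) and Ptges3, the cytosolic prostaglandin E synthase gene, by 0.85 ± 0.11 (adjusted p = 1.62e-06). Hpgds, the hematopoietic prostaglandin D synthase gene, fell from 281 ± 16 to 104 ± 30.6 CPM (-1.44 ± 0.15, adjusted p = 4.21e-08) and by -1.70, -1.94 and -1.86 in the other genotypes. The prostacyclin receptor gene Ptgir rose by 0.56 ± 0.13 in TBK1-WT ∆control and by 1.08 ± 0.12 in libraries with the TBK1-cKD ∆IKKe label, where it was also higher untreated, at 14 ± 0.619 against 7.66 ± 0.999 CPM (0.88 ± 0.13, adjusted p = 3.24e-05).

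On the leukotriene and lipid mediator side, Mgst3, a microsomal glutathione S-transferase gene, fell from 50.3 ± 2.26 to 18.4 ± 5.58 CPM in TBK1-WT ∆control (-1.46 ± 0.20, adjusted p = 1.68e-06), while Cysltr1, a receptor of cysteinyl leukotrienes, rose from 50.8 ± 1.52 to 113 ± 1.56 CPM (1.15 ± 0.12, adjusted p = 4.59e-08). Pla2g7, which encodes the enzyme that breaks down platelet-activating factor, rose from 46.3 ± 3.02 to 123 ± 37.9 CPM (1.41 ± 0.17, adjusted p = 3.96e-07), and its untreated level of 129 ± 6.13 CPM in libraries with the TBK1-cKD ∆IKKe label was 1.48 ± 0.17 log2 higher than in TBK1-WT ∆control (adjusted p = 2.01e-06). Fpr2, the receptor gene of formyl peptides and lipoxin A4, rose from 0.0748 ± 0.0171 to 105 ± 18.8 CPM (10.38 ± 0.26, adjusted p = 2.56e-18). In libraries with the TBK1-cKD ∆IKKe label it was at 8.07 ± 0.409 CPM untreated, 6.67 ± 0.29 log2 higher than in TBK1-WT ∆control (adjusted p = 3.74e-13), and at 216 ± 37.8 after R837, a rise of 4.74 ± 0.16. The difference of the Fpr2 responses was -5.64 ± 0.35 (adjusted p = 3.04e-10), so that Fpr2, as Ptges, had a higher untreated level and a smaller log2 rise in these libraries than in TBK1-WT ∆control.

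Genes whose log2 CPM followed a member most closely over the 24 libraries were listed by Pearson correlation, as a description, since all points share the split by treatment and 4 genotypes. Ptgs2 was closest to Slc7a11 (0.998), Cxcl1 (0.997), Cd40 (0.996), Nfkb2 (0.996) and Rnf149 (0.996). Ptges was closest to Relb (0.998), Cdc42ep2 (0.997), Gpr84 (0.997), Icam1 (0.995) and Met (0.995). Ptgs1 was closest to Cdc25b (0.986), St6gal1 (0.986), Pip4k2a (0.986), Epas1 (0.985) and Scmh1 (0.985). Alox5, at few counts after R837, was closest to 1600010M07Rik (0.976), Zfp493 (0.973), Mlph (0.973), Gm15513 (0.968) and Sv2a (0.964). Among the members, Ptgs2 correlated with Ptges at 0.978 and with Ptgs1 at -0.973, and Ptger4 with Ptgs2 at -0.0121.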

How the data were processed

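The deposited files give whole-number read counts per Ensembl gene for 24 libraries, with the gene width and an RPKM column. Reads were aligned with GSNAP to GRCm38, as the submitters' processing notes list (per the labels). The counter and annotation release are not given in the sources used. Gene positions and shared exon bases are from GENCODE, whose exons are longer than the deposited width for every member. Per the labels' protocols, the kit was TruSeq v2 with single-end 50-base reads. The RPKM values deposited by the authors served only to infer reads outside the gene counts. Treatment was taken from the titles, since every record carries the same treatment text. Counts were tested with edgeR 4.0.16 (quasi-likelihood F test, TMM, filterByExpr with a minimum count of 10 and minimum total of 15; limma 3.58.1, R 4.3.3) on all 24 libraries with 8 group means, Benjamini-Hochberg adjustment and a threshold of 0.05; 14681 of 52636 genes were tested. The SE is the log2 change divided by the square root of F. Log2 CPM uses an offset of 0.5. The script was tested on simulated data. The 233 identifiers without a symbol held 0.0187% of counts. Total counts of 19727746 to 41323219 per library set the precision of low genes; floors cover counting error only.

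There were 13 comparisons set in the design and 4 added after values were seen. Alternatives were RLE size factors, no count filter, DESeq2 1.42.0, only the groups compared in the fit, the nuclear RNA level as a term, libraries of 1 nuclear RNA level, each library left out in turn and, added after seeing the data, the fit without 3 R837 libraries. The members, the pathway list and the marker lists (macrophage, neutrophil, mast cell and basophil, eosinophil, platelet and megakaryocyte, fibroblast and stromal, lymphocyte, dendritic cell) were chosen with earlier results of these data known. Named were all 10 members; of the other pathway genes, at most the 12 of highest level per length among those called with a 2-fold change in a response; and the 5 genes most correlated with each of Ptgs1, Ptgs2, Ptges and Alox5.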

Additional observations from a re-analysis of the deposited data

Results flagged for a closer look

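Of the 10 genes, 7 had a response to R837 in libraries with the TBK1-cKD ∆IKKe label that differed from the response of TBK1-WT ∆control. Of these, 2 also differed so in TBK1-WT ∆IKKe and in TBK1-cKD ∆control. The test was the edgeR test of the difference between the log2 changes with Benjamini-Hochberg adjustment over all tested genes. Of all tested genes, 0.245% differed so in TBK1-WT ∆IKKe, 0.879% in TBK1-cKD ∆control and 17.3% in libraries with the TBK1-cKD ∆IKKe label. In TBK1-WT ∆IKKe the members were Pla2g4a (0.75 ± 0.10, SE, adjusted p = 0.00153) and Ptgs2 (1.37 ± 0.20, adjusted p = 0.00199). In TBK1-cKD ∆control they were Pla2g4a (0.56 ± 0.10, adjusted p = 0.00718) and Ptgs2 (0.94 ± 0.20, adjusted p = 0.0282). Both were lost on the groups compared alone (adjusted p = 0.0573 and 0.0833), and Ptgs2 without any of 6 single libraries (0.0536 to 0.183). In the libraries labelled TBK1-cKD ∆IKKe the rise was larger for Pla2g4a (1.78 ± 0.10, adjusted p = 4.69e-11), Ptgs2 (0.81 ± 0.17, adjusted p = 0.00158) and Ptger2 (0.67 ± 0.16, adjusted p = 0.00402). The difference was negative there for Ptges (-3.63 ± 0.21, adjusted p = 1e-10), Tbxas1 (-0.56 ± 0.10, adjusted p = 0.000243), Ptger4 (-1.48 ± 0.14, adjusted p = 1.35e-07) and Alox5 (-2.14 ± 0.64, adjusted p = 0.0228). Ptges rose less, Tbxas1 and Alox5 fell further, and Ptger4 fell where it rose in TBK1-WT ∆control. The Alox5 call was lost without the R837 TBK1-cKD ∆IKKe-labelled replicate 1 (adjusted p = 0.0647) or R837 TBK1-WT ∆control replicate 2 (0.054). All of these differences share the 6 libraries of TBK1-WT ∆control.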

How the results depend on the processing

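No paired analysis was possible because the labels carry no replicate number; numbers here follow accession order and only name a library. Over 2239 values of the 10 genes under the alternatives, 2070 kept their direction and their side of the threshold, 72 changed sign with neither value past it, 66 lost a call, 30 gained one and 1 changed sign with a call: Ptger4 in the response of TBK1-WT ∆IKKe, at -0.23 when the model held the nuclear RNA level. Counts of called genes moved most in comparisons of genotypes, and the cause was not tested. For untreated TBK1-WT ∆IKKe against TBK1-WT ∆control (0 genes) the count was 4 with no filter, 3 with the nuclear RNA term, 1 with DESeq2, 3 on the groups compared alone and 0 to 5 without 1 library. For untreated TBK1-cKD ∆control (742) it was 2042 with the nuclear RNA term, 2808 on its groups alone and 392 to 714 without 1 library, with 1 to 3 members called. For untreated TBK1-cKD ∆IKKe (2000) it was 3752 and 5391 under the first 2 of these. After R837, TBK1-WT ∆IKKe (272) gave 519 with the nuclear RNA term, 499 with DESeq2, 19 on its groups alone (1 member), 664 without the 3 R837 libraries that stand apart and 125 to 356 without 1 library. TBK1-cKD ∆control (1305) gave 40 on its groups alone (1 member) and 774 to 1729 without 1 library (2 to 5 members), and TBK1-cKD ∆IKKe (4725) gave 2610 on its groups alone. For the difference of responses, TBK1-WT ∆IKKe (36) gave 146, 122, 23 and 247 with the nuclear RNA term, DESeq2, its groups alone and without the 3 libraries, and 17 to 37 without 1 library. TBK1-cKD ∆control (129) gave 442, 266, 29 and 645 in the same order, with 0 members on its groups alone, and 47 to 142 genes and 1 to 2 members without 1 library. TBK1-cKD ∆IKKe (2546) gave 4420 with the nuclear RNA term and 4763 without the 3 libraries. Untreated TBK1-cKD ∆IKKe against TBK1-cKD ∆control had 2 to 3 members called without 1 library, from 4. Depth limits Alox5 after R837, at 7 to 28 counts per group.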
